A study of Homo sapiens with 6 samples.

Results

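The genes described here are 51 genes of B-cell receptor (BCR) signalling, selected by symbol from a list, with no measured value in the rule, among the 20667 gene symbols of each library. The list was chosen with earlier results of these data known, so counts over it are description and not independent evidence. All 51 were found, and 50 of them passed the filter on low values that left 10526 genes to be tested. They were read from 6 RNA-seq libraries made from U2932, an established cell line from a diffuse large B-cell lymphoma of the activated B-cell-like type (ABC-DLBCL). The cells stably carried a lentiviral short hairpin RNA against the kinase ROCK2 (ROCK2 KD, n = 3) or a scrambled hairpin (Scr shRNA, n = 3), in vectors that also encode puromycin resistance and the fluorescent protein tGFP, so that both groups share the vector and the selection. Both groups are numbered as replicates 1, 2 and 3, a single hairpin was used against ROCK2, and nothing states whether the replicates were separate infections, so that p values measure the spread between these libraries.

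The BCR is an immunoglobulin that signals through the paired chains CD79A and CD79B. Src family kinases such as LYN phosphorylate these chains, SYK binds to them and is activated, and the adaptor BLNK then brings BTK and phospholipase PLCG2 together, which leads to calcium release, NFAT activation and protein kinase C activity. Phosphatases, ubiquitin ligases and inhibitory adaptors such as PTPN6, INPP5D, CBL and DOK3 restrain the same steps, and chronic signalling through this receptor is a known feature of ABC-DLBCL.

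Values are FPKM, fragments scaled to transcript length and to the fragments mapped, as deposited. Log2 fold changes are ROCK2 KD minus Scr shRNA on log2(scaled FPKM + 1), from limma fitted over all 10526 genes with the replicate number as a block, a scale on which low genes show less than their true change. The sum of the FPKM lay between 208289 and 217309 in the libraries of replicate 1 and between 438262 and 480612 in the others, and the relative depth read from the smallest steps of the values ran from 71.4% to 92.8% of that of Scr shRNA replicate 3. ROCK2 was at 2.75, 5.35 and 1.26 FPKM in ROCK2 KD replicates 1, 2 and 3 and at 4.32, 7.21 and 5.78 in the Scr shRNA libraries, lower in all 3 pairs but not past the test (limma adjusted p = 0.811). The 7 B-lineage markers, among them MS4A1, PAX5, EBF1 and CD74, had a summed FPKM of 414 to 1787 in ROCK2 KD and 251 to 1572 in Scr shRNA libraries. Of 7 T-cell markers, 6 were under 1 FPKM in every library, CD2 and CD5 were listed at 0 in all of them, and CD247 lay between 0.721 and 5.85. The summed T-cell markers ran from 2.05 to 4.85 in ROCK2 KD and from 1.12 to 6.08 in Scr shRNA libraries. Of 6 myeloid markers, 5 were under 1 FPKM throughout, the exception being CD68, and MPO was listed at 0. The sums were 2.50 to 2.81 and 1.66 to 2.68. Plasma cell markers (SDC1, PRDM1, XBP1 and TNFRSF17) summed to 91.7 to 330.0 and 88.5 to 359. In bulk libraries fewer cells of a kind and less RNA per cell cannot be told apart.

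BCR signalling genes lay mostly above 0 in ROCK2 KD against Scr shRNA, by small amounts. Of the 50 genes tested, 43 had a log2 fold change above 0 and 7 below it, where 48.7% of all genes tested were higher. Without replicate 1 the counts were 31 and 19, and without replicate 3 they were 39 and 11. The median over the BCR genes was 0.10, with a range from -0.23 to 0.57, and that over all genes tested was 0.00. With the libraries compared within replicate numbers, 16 BCR genes (32.0%) were above their partner in all 3 pairs and 0 were lower in all 3, against 12.7% and 12.3% of all genes tested. The 16 are CD79A, PTPRC, LYN, PIK3CG, PIK3R1, BLNK, GRB2, PIK3AP1, LAT2, SOS1, ITPR1, NFATC2, PTPN6, PTPN22, INPP5D and DOK3. The 7 with a mean below 0 are CD79B, CD81, PDPK1, RASGRP1, ITPR3, CSK and PAG1.

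No BCR gene passed the test. In limma, blocked by replicate number, 0 of the 50 had an adjusted p under 0.05, as was true of 0% of all genes tested, and none was under 0.811. By unadjusted p, 9 were under 0.05, each of them higher in ROCK2 KD, where 3.09% of all genes were called higher and 2.3% lower by the same rule. They are CD79A, LYN, BLNK, PIK3AP1, LAT2, NFATC2, FCGR2B, PTPN6 and DOK3. Without the replicate block the number was 0, and without replicate 2 it was 5. Without replicate 1, 6 were higher and 2 lower at that limit, the lower ones being CD79B (-0.46) and ITPR3 (-0.50). The shares of all genes at that limit in these other fits are not given here, so their counts cannot be read against them. On simulated data the blocked test did not recover changes slightly smaller than the largest seen here, so the lack of calls does not show that these genes were level. After ComBat on the replicate number, which is the correction the study names, followed by limma without the block, LYN, BLNK, PIK3AP1 and NFATC2 had adjusted p values of 0.026, 0.031, 0.030 and 0.043. By that rule 1.52% of all genes were called higher and 1.3% lower, and the fit does not count the degrees of freedom that the correction used. The same fit also called genes on data simulated with no change at all, more of them than were called here, so its adjusted p values do not control the false discovery rate and the 4 genes are not taken as called.

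**Figure D1:**
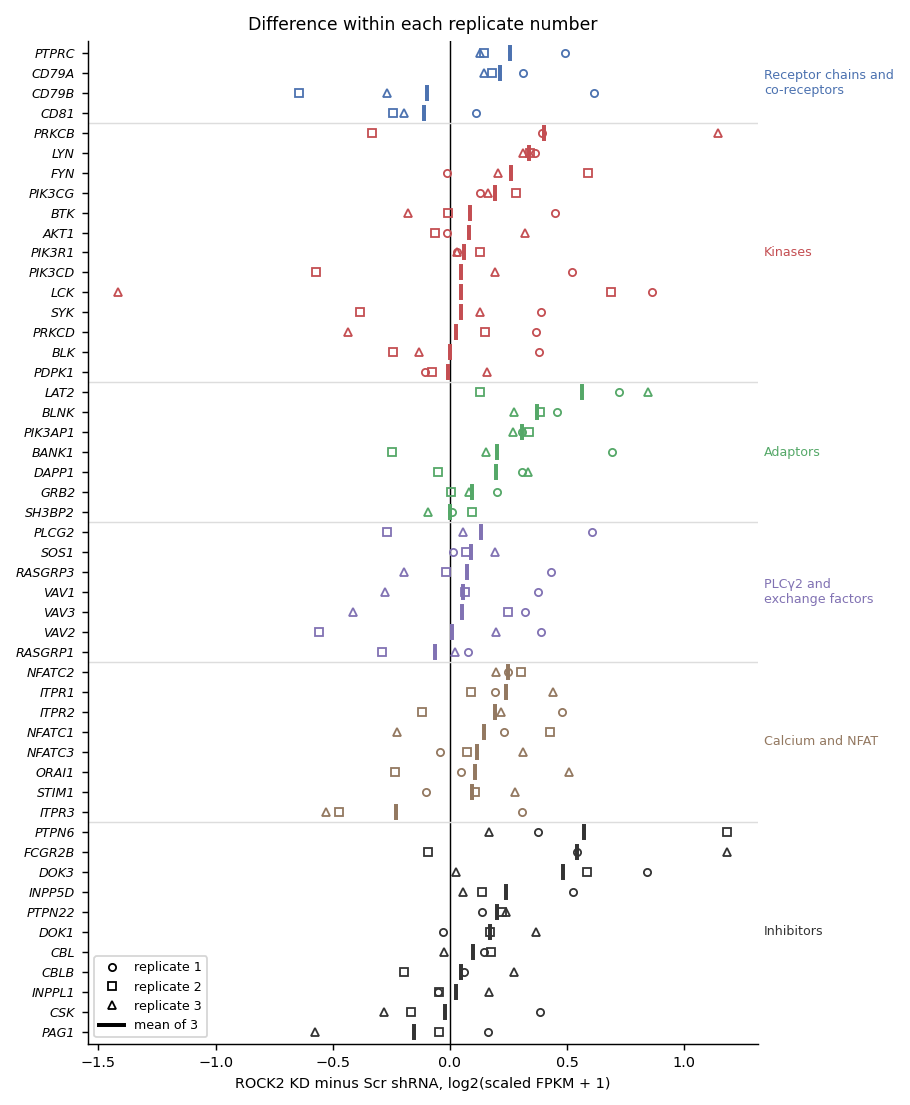
Difference between ROCK2 KD and Scr shRNA within each replicate number for the 50 BCR signalling genes tested, on log2(scaled FPKM + 1), grouped by role. Open symbols are replicates 1, 2 and 3 and the thick bar is their mean; 43 of the 50 bars lie above 0 and LCK has the lowest symbol, at -1.42 in replicate 3.

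**Figure D2:**
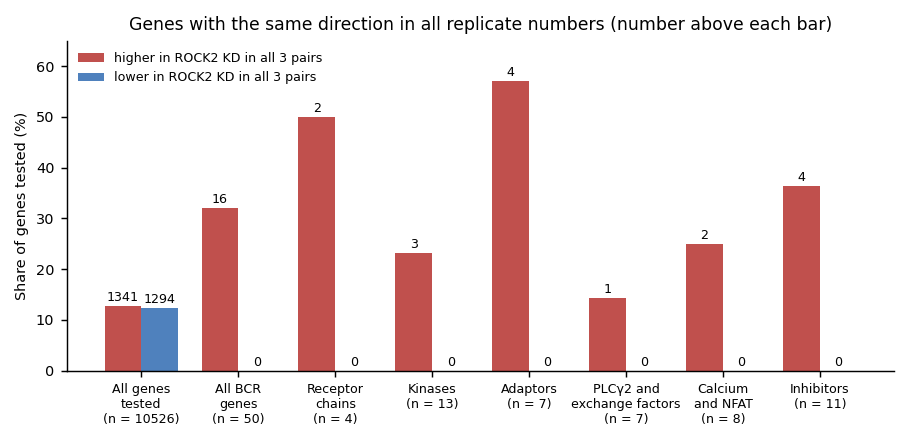
Share of genes tested (%) that were higher (red) or lower (blue) in ROCK2 KD in all 3 pairs, with the number of genes above each bar. Adaptors reach 4 of 7 and inhibitors 4 of 11, no role holds a gene lower in all pairs, and all genes tested stand at 12.7% and 12.3%.

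The pairs did not contribute alike. The median difference of the 50 genes was 0.31 in replicate 1, 0.07 in replicate 2 and 0.16 in replicate 3, with 43, 27 and 35 genes higher, while the medians over all genes tested were 0.01, -0.01 and 0.00. The B-lineage markers also differed most in replicate 1, where all 7 were higher in ROCK2 KD in replicate 1, with a median difference of 0.52. In replicate 2, 5 of the 7 were higher, with a median of 0.25, and in replicate 3 all but CD74 were lower, with a median of -0.42. The part of these markers in the difference of the BCR genes was not tested.

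Among the receptor chains and their partners, 2 of 4 genes were higher in all 3 pairs and the median log2 fold change was 0.06. CD79A, which carries one of the cytoplasmic tyrosine motifs of the receptor, lies on chromosome 19 of GRCh37 from 42381349 to 42385439. It was measured at 199, 458 and 456 FPKM in ROCK2 KD replicates 1, 2 and 3 and at 160.4, 405 and 405 in the Scr shRNA libraries. Each ROCK2 KD library was above the Scr shRNA library of its number, while the groups overlapped, and the log2 fold change was 0.21 (SE, the standard error, 0.09, limma adjusted p = 0.909). The RefSeq promoter of CD79A is shown since this gene has the highest mean level of the 51, with capitals on each GGAA or its reverse complement, the core that ETS factors bind, of which there are 3 in this window. It covers chr19:41877029-41877328 of GRCh38.p14 on the plus strand, from 250 bases before the transcript start to 50 after it.
CD79A promoter: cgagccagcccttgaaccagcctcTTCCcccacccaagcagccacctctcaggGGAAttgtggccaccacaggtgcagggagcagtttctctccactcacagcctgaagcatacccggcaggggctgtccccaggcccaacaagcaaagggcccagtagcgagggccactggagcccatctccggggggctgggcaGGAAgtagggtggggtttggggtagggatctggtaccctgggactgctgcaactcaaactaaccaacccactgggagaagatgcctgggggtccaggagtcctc

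CD79B, the partner chain, had no shared direction over the pairs. It was at 87.6, 344 and 259.5 FPKM in ROCK2 KD and at 57.0, 538 and 308 in Scr shRNA libraries, higher in replicate 1 and lower in replicates 2 and 3, and its log2 fold change was -0.10 with a 95% interval from -0.62 to 0.42. CD79A made up 57.1% to 69.5% of the summed FPKM of the pair in ROCK2 KD and 42.9% to 73.8% in Scr shRNA libraries, so that the spread between libraries of 1 group exceeds the difference between groups. CD81, a tetraspanin of the B-cell surface, was also higher in replicate 1 and lower in the others, with a log2 fold change of -0.11. PTPRC (CD45), the phosphatase that keeps Src family kinases active, was at 24.2, 63.5 and 67.3 FPKM in ROCK2 KD and 17.0, 57.4 and 60.4 in Scr shRNA libraries, above its partner in each pair with a log2 fold change of 0.26 (adjusted p = 0.909 from limma). That mean rested mainly on replicate 1, with differences of 0.49, 0.14 and 0.13 in replicates 1, 2 and 3.

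Of the 13 kinases and kinase subunits, 12 had a log2 fold change above 0 and 3 were higher in all 3 pairs, with a median of 0.06. Without replicate 1 the number above 0 was 7. LYN, the main Src family kinase of B cells, which both starts BCR signalling and feeds its inhibition, was at 13.6, 46.6 and 51.7 FPKM in ROCK2 KD and at 10.4, 36.5 and 40.8 in Scr shRNA libraries. Its differences were the most even of the kinases, 0.36, 0.34 and 0.31 in replicates 1, 2 and 3, and the groups overlapped, with replicate 1 low in both. The log2 fold change was 0.34 (SE 0.09, limma adjusted p = 0.811). The study names LYN, BLNK and FYN from these same libraries, so their direction is not independent evidence.

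No other Src family kinase had a shared direction over the pairs. BLK was at 14.5, 35.4 and 36.3 FPKM in ROCK2 KD and 11.0, 42.1 and 39.3 in the Scr shRNA group, which averages to a log2 fold change of 0.00 (95% interval -0.33 to 0.33), with the sign below 0 without replicate 1. FYN was low, at 4.39, 6.58 and 3.50 against 4.43, 3.96 and 2.84, level in replicate 1 and higher in the others, and its log2 fold change was 0.26 (SE 0.14, limma adjusted p = 0.957), or 0.096 without replicate 2. LCK, chosen after its values were seen, was at 7.74, 22.1 and 3.41 FPKM in ROCK2 KD and 3.95, 13.2 and 10.9 in Scr shRNA libraries. It was higher in ROCK2 KD in replicates 1 and 2, by 0.86 and 0.69, and lower in replicate 3, by a log2 difference of -1.42. In the summed FPKM of the family, LYN took 33.8% to 54.5% in ROCK2 KD and 35.0% to 43.5% in Scr shRNA libraries. BLK took 32.0% to 38.2% and 36.9% to 44.0%, and its share was lower in ROCK2 KD in each pair.

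SYK and BTK, the kinases directly behind the receptor and the adaptor, showed no shared direction. SYK was at 14.7, 41.3 and 46.9 FPKM in ROCK2 KD and at 11.0, 54.3 and 42.1 in the Scr shRNA group, which gives a log2 fold change of 0.05 (95% interval -0.32 to 0.41). BTK was at 16.2, 55.6 and 37.3 against 11.7, 55.9 and 41.8, a log2 fold change of 0.09 (95% interval -0.24 to 0.41). Both were higher in ROCK2 KD in replicate 1, by 0.39 and 0.45, and without that replicate their log2 fold changes were -0.13 and -0.094. Of the phosphoinositide 3-kinase genes, PIK3CG and PIK3R1 were above their partners in each pair (log2 fold changes 0.19 and 0.06), and PIK3CD, the catalytic subunit most used by B cells, had 0.05 with differences from -0.57 to 0.52. PDPK1 and AKT1, which act downstream of it, had -0.01 and 0.08. The protein kinase C genes PRKCB and PRKCD had 0.40 and 0.03. PRKCB was at 5.59, 4.94 and 18.3 FPKM in ROCK2 KD against 4.09, 6.55 and 7.54, and its mean rests on the library of ROCK2 KD replicate 3.

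Adaptors had the highest share of genes with a shared direction. All 7 had a log2 fold change above 0 (5 without replicate 1), 4 were higher in all 3 pairs and the median was 0.20, while 3 had an unadjusted p under 0.05. BLNK, the scaffold on which BTK and PLCG2 meet, lies on chromosome 10 of GRCh37 from 97948927 to 98031344 and overlaps ZNF518A, with which reads could be shared since no strand setting is stated. The same limit holds for CD81, PIK3CD, VAV3, SOS1, RASGRP3, ITPR1, ITPR3, NFATC3, PTPN22, DOK1 and CBL, which also overlap another gene of the files. It was at 10.7, 70.5 and 62.0 FPKM in ROCK2 KD and 7.63, 53.7 and 50.3 in Scr shRNA libraries. ROCK2 KD replicates 2 and 3 were above all Scr shRNA libraries, and the replicate 1 libraries were far below the rest. The log2 fold change was 0.37 (SE 0.10, limma adjusted p = 0.811). The RefSeq promoter of BLNK, shown because this gene had the lowest p of the 51, covers chr10:96271520-96271819 of GRCh38.p14 on the minus strand and holds 3 GGAA cores, again in capitals.
BLNK promoter: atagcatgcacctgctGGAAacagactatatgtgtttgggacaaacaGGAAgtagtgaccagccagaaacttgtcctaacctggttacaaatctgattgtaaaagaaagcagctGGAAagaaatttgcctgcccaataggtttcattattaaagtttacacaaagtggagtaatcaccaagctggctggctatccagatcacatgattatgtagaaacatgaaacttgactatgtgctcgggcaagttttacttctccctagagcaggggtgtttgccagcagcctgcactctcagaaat

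PIK3AP1 (BCAP), which links the receptor complex to phosphoinositide 3-kinase, was at 7.13, 29.5 and 32.2 FPKM in ROCK2 KD and 5.62, 23.1 and 26.1 in Scr shRNA libraries. Its differences of 0.31, 0.34 and 0.27 were also close to each other, with a log2 fold change of 0.31 (SE 0.10, limma adjusted p = 0.888). LAT2, a membrane adaptor phosphorylated after receptor ligation, was at 17.6, 17.8 and 32.7 FPKM in ROCK2 KD and 10.4, 16.2 and 17.4 in Scr shRNA libraries. It was the only one of the 51 whose ROCK2 KD libraries were all above all Scr shRNA libraries in the deposited FPKM, where 0.437% of all genes tested were. After scaling its groups overlapped. The log2 fold change of LAT2 was 0.56 (SE 0.15, limma adjusted p = 0.811), from differences of 0.72, 0.13 and 0.84. The most abundant adaptor, GRB2, was at 58.7, 149.9 and 149.9 FPKM against 51.0, 149.6 and 139.5, a log2 fold change of 0.10, or 0.042 without replicate 1. BANK1, DAPP1 and SH3BP2 had 0.20, 0.20 and 0.00, and none had the same direction in all pairs.

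**Figure D3:**
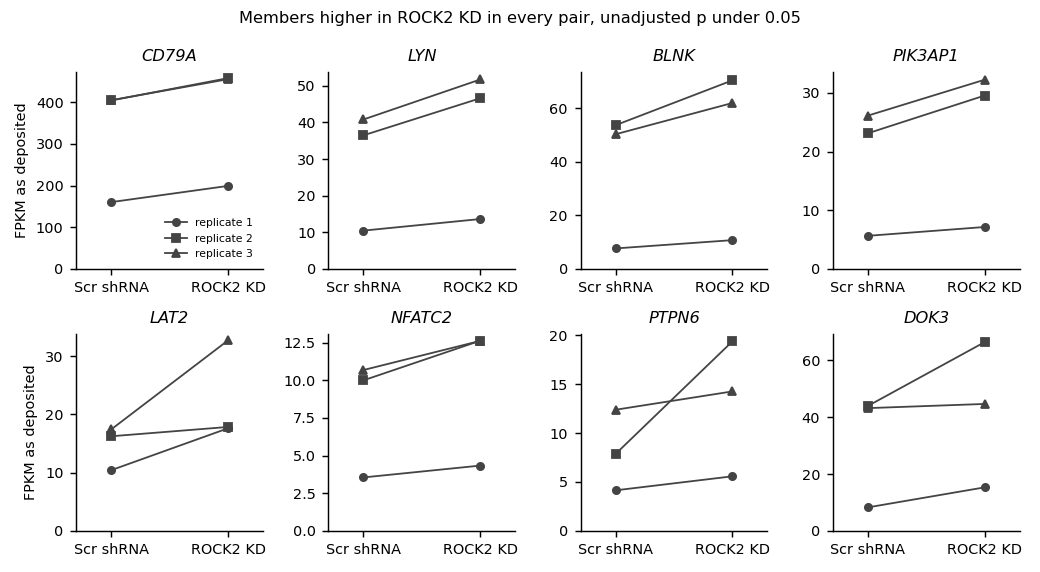
FPKM as deposited in Scr shRNA and ROCK2 KD libraries for the 8 BCR genes with a shared direction over the pairs and an unadjusted p under 0.05; lines join libraries of the same replicate number. Every line goes up, and replicate 1 (circles) lies lowest in both columns of each panel, by little for LAT2 in ROCK2 KD, where replicates 1 and 2 are at 17.6 and 17.8.

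Of PLCG2 and the exchange factors, 1 of 7 genes (14.3%) was higher in all 3 pairs, near the 12.7% of all genes tested. It was SOS1, which activates Ras, at 0.09. The median log2 fold change of the 7 was 0.05, and 0 had an unadjusted p under 0.05. PLCG2, the phospholipase that makes the calcium-releasing messenger, was at 16.1, 34.7 and 41.8 FPKM in ROCK2 KD and 10.3, 42.0 and 39.6 in the Scr shRNA group, which gives a log2 fold change of 0.13 (95% interval -0.27 to 0.53). VAV1, the haematopoietic exchange factor of its family, was at 8.23, 31.6 and 20.1 against 6.19, 30.2 and 24.2, a log2 fold change of 0.05, and VAV2 and VAV3 had 0.01 and 0.05. VAV1 made up 46.7% to 69.1% of the family in ROCK2 KD and 47.1% to 69.3% in Scr shRNA libraries. RASGRP3 was at 11.4 to 31.3 FPKM across the libraries and RASGRP1 at 1.45 to 3.48, with log2 fold changes of 0.07 and -0.06.

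In the calcium and NFAT group, 7 of 8 genes had a log2 fold change above 0 and 2 were higher in all 3 pairs, with a median of 0.13. NFATC2, a calcium-activated transcription factor, lies on chromosome 20 of GRCh37 from 50003494 to 50179370. It was at 4.33, 12.6 and 12.6 FPKM in ROCK2 KD and 3.54, 10.0 and 10.7 in Scr shRNA libraries, with differences of 0.25, 0.30 and 0.20 that average 0.25 (SE 0.10, limma adjusted p = 0.909). Its share of the NFATC family was higher in ROCK2 KD in each pair, at 21.6% to 22.7% against 19.2% to 21.7%. NFATC1 was at 5.97, 23.3 and 24.2 FPKM against 4.98, 17.0 and 28.1, without a shared direction, and NFATC3 had a log2 fold change of 0.11.

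The receptors for inositol trisphosphate, which release calcium from the endoplasmic reticulum, had means on both sides of 0, none of them past the test. ITPR1 was higher in all 3 pairs (0.24, adjusted p = 0.951 from limma) and ITPR2 in 2 of them (0.19). ITPR3 was at 8.49, 8.07 and 5.96 FPKM in ROCK2 KD and 6.72, 11.7 and 9.0 in Scr shRNA libraries, higher in replicate 1 and lower in replicates 2 and 3, and its log2 fold change of -0.23 was the lowest of the 50, and without replicate 3 it was -0.08. The ITPR3 share of the family was lower in ROCK2 KD in each pair, at 60.0%, 39.6% and 26.5% against 61.7%, 47.3% and 41.0% in replicates 1, 2 and 3. STIM1, the sensor of calcium stores, and ORAI1, the channel it opens, had log2 fold changes of 0.09 and 0.11.

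Of 12 inhibitors of the pathway, DOK2 was under 1 FPKM in every library and was not tested. Of the other 11, 9 had a log2 fold change above 0, 4 were higher in all 3 pairs and 3 had an unadjusted p under 0.05, with a median of 0.17. PTPN6 (SHP-1), a phosphatase recruited by inhibitory receptors, was at 5.58, 19.4 and 14.3 FPKM in ROCK2 KD and 4.14, 7.87 and 12.4 in Scr shRNA libraries. The gene spans 7055631 to 7070479 of chromosome 12 in GRCh37. A log2 fold change of 0.57 was the highest of the 50 (SE 0.20, limma adjusted p = 0.888) and rested mainly on replicate 2, where the difference was 1.18, against 0.38 and 0.17. Without replicate 2 it was 0.27. DOK3, an adaptor that recruits inhibitory enzymes, was at 15.3, 66.5 and 44.7 FPKM against 8.24, 44.0 and 43.2, a log2 fold change of 0.48 (SE 0.16, limma adjusted p = 0.888), with differences of 0.84 and 0.58 in replicates 1 and 2 and of 0.03 in replicate 3. Without replicate 1 it was 0.30. DOK3 took 69.7% to 88.2% of the DOK family in ROCK2 KD and 54.0% to 85.2% in Scr shRNA libraries.

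FCGR2B, the inhibitory Fc receptor, was low, at 2.29, 3.60 and 6.21 FPKM in ROCK2 KD and 1.36, 3.92 and 2.04 in Scr shRNA libraries. Its log2 fold change was 0.54 (SE 0.23, limma adjusted p = 0.909) and it was lower in replicate 2. Without replicate 3 the value was 0.22, and without replicate 2 it was 0.86. It has a near-identical copy in FCGR2C, at 0.357 to 1.56 FPKM, between which reads can be split, so its value is uncertain. The lipid phosphatase INPP5D (SHIP-1) and the phosphatase PTPN22 were above their partners in each pair (log2 fold changes 0.24 and 0.20, adjusted p = 0.957 and 0.953 from limma). The mean of INPP5D rested mainly on replicate 1, with differences of 0.52, 0.14 and 0.05 in replicates 1, 2 and 3. CSK, which switches Src family kinases off, was the most abundant inhibitor, at 53.1, 194 and 173 FPKM against 40.5, 218 and 207, a log2 fold change of -0.02 (95% interval -0.36 to 0.32). PAG1, the membrane anchor of CSK, had -0.15. The ubiquitin ligases CBL and CBLB had 0.10 and 0.05, and INPPL1 and DOK1 had 0.02 and 0.17.

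**Figure D4:**
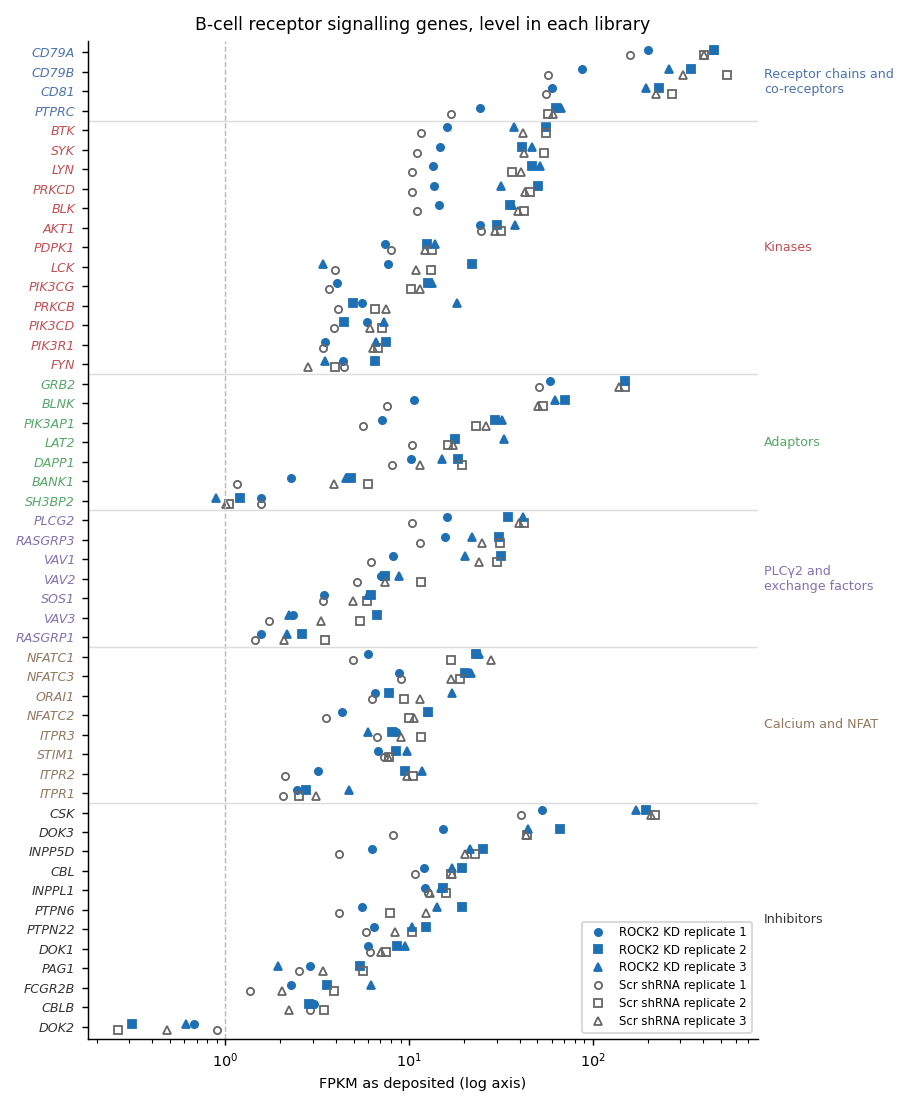
FPKM as deposited (log axis) of the 51 BCR genes in each library, grouped by role and ordered by mean; filled blue symbols are ROCK2 KD, open grey symbols Scr shRNA, and the dashed line marks 1 FPKM. CD79A and CD79B hold the highest places, DOK2 lies under 1 FPKM in every library, and circles (replicate 1) lie to the left for most genes.

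The order of the levels, per transcript length, was led by the receptor. CD79A and CD79B held the highest 2 places among the 51 in every library, CD81 the third, and GRB2 and CSK the next places. CD79B was above CD79A in Scr shRNA replicate 2 alone, so the order of those neighbours is not separated by their spread. BTK, SYK, LYN and PRKCD had mean FPKM of 36.4, 35.1, 33.3 and 32.4 over the 6 libraries and changed places from library to library, which their spread does not separate either. At the other end, RASGRP1, SH3BP2 and DOK2 had means of 2.23, 1.21 and 0.543.

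Between replicate numbers many of these genes, as of all genes tested, differed in the same way in both groups. The median range within a group was 0.77 on log2(scaled FPKM + 1) for the BCR genes and 0.55 over all genes tested. In replicate 1 minus the mean of replicates 2 and 3, BLNK was at -1.86 in Scr shRNA and -1.73 in ROCK2 KD libraries. CD79B was at -2.00 and -0.93, CSK at -1.55 and -0.94, and DOK3 at -1.51 and -0.97. FYN was on the other side, at 0.99 and 0.58, as was SH3BP2, at 0.82 and 0.83. In total 26 of the 50 (52%) were lower in replicate 1 in both groups, not far from the 41.6% of all genes tested. BLNK, PIK3AP1 and NFATC1 (6% of the 50) were lower by over 1 in both, against 2.48% of all genes tested. The summed B-lineage markers were also lowest in replicate 1 in both groups, and what sets replicate 1 apart was not tested.

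**Figure D5:**
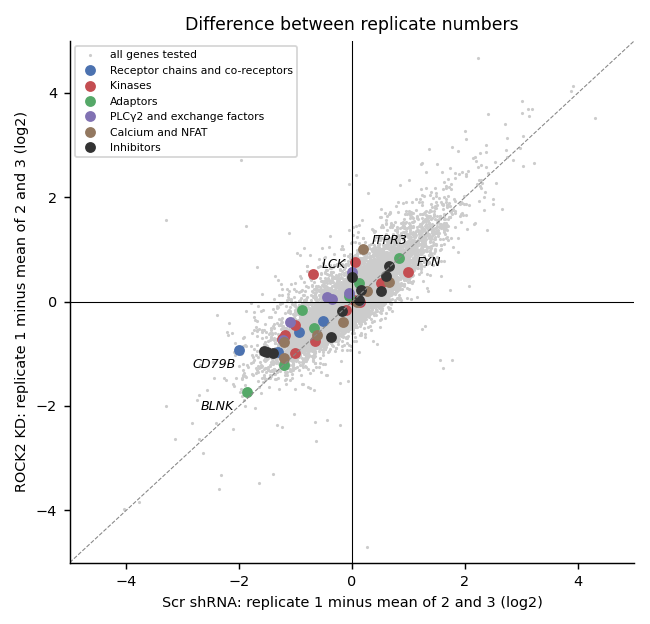
Difference of replicate 1 from the mean of replicates 2 and 3 on log2(scaled FPKM + 1), in Scr shRNA (x axis) and ROCK2 KD libraries (y axis); grey dots are all 10526 genes tested and coloured points are the BCR genes by role. BLNK (-1.86 and -1.73) and CD79B (-2.00 and -0.93) lie at the lower left, LCK stands above 0 on the y axis alone, and the dashed line marks equal values.

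The library of ROCK2 KD replicate 3 stood apart for some BCR genes. LCK was at 3.41 FPKM there and at 10.9 in its Scr shRNA partner, VAV3 at 2.23 against 3.31 and PAG1 at 1.94 against 3.42. PRKCB was at 18.3 against 7.54, FCGR2B at 6.21 against 2.04 and ORAI1 at 17.1 against 11.5. The same library held the lowest ROCK2, at 1.26 FPKM, and CD22 was at 29.1 against 85.5. Without replicate 3 the median log2 fold change of the BCR genes was 0.15, against 0.10 with it. These genes were picked after their values were seen.

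Other genes of the pathway, from a list of 57 that covers the co-receptors, NF-κB, Ras and MAP kinase, calcineurin and Rac steps, also lay mostly above 0. Of the 54 tested, 37 (68.5%) had a log2 fold change above 0, against 48.7% of all genes tested, with a median of 0.04. In all 3 pairs 16 (29.6%) were higher and 0 lower, against 12.7% and 12.3% of all genes tested. At an unadjusted p under 0.05 there were 4 (7.41%), all higher, and 0 passed at an adjusted p from limma. By the same unadjusted rule 3.09% of all genes were higher and 2.3% lower. The highest 3 with a shared direction were CD72, an inhibitory co-receptor, REL, an NF-κB subunit, and GAB2, a docking protein. CD72 was at 2.12, 5.68 and 3.27 FPKM in ROCK2 KD and 1.34, 2.90 and 2.81 in the Scr shRNA group, which gives a log2 fold change of 0.45 (adjusted p = 0.888 from limma). REL and GAB2 had 0.33 and 0.30 (adjusted p = 0.898 and 0.909 from limma). MALT1 and BCL10, which carry the signal on to NF-κB, had 0.17 and 0.03.

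Since the study concerns IRF4, which binds DNA with the ETS factor PU.1 at a composite element, the RefSeq promoters were searched on both strands for GGAANNGAAA, the composite, and for the octamer ATGCAAAT. Of the 51 genes 41 had an entry, with 79 promoters. The composite was found in 6 of the 41 genes (14.6%), each in 1 of its promoters, where 3.47% of all 27305 genes with an entry hold it. Per promoter the shares were 7.59% of 79 and 2.82% of all 35116. The octamer was found in ITPR3 and PRKCB, 4.88% of the genes against 2.19%. The GGAA core alone, which the composite contains, was in 97.6% of the genes and 96.3% of all. A match to letters is a description and says nothing of binding in these cells.

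The 6 windows are shown because the composite is the element at which the factor under study is known to bind, with the composite in capitals and 20 bases on each side, on the plus strand of GRCh38.p14. In 5 of them it is read as its reverse complement, and it starts between 93 and 16 bases before the transcript start. For PIK3CD and FCGR2B the promoter is that of a start downstream of the first listed. The windows lie at chr1:9691430-9691479 (PIK3CD), chr1:161663107-161663156 (FCGR2B), chr2:33436235-33436284 (RASGRP3), chr2:233060281-233060330 (INPP5D), chr4:99816779-99816828 (DAPP1) and chr4:101790637-101790686 (BANK1).
PIK3CD: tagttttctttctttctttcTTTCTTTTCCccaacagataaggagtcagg
FCGR2B: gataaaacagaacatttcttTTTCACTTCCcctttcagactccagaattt
RASGRP3: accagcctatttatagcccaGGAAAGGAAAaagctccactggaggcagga
INPP5D: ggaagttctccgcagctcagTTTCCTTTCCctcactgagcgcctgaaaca
DAPP1: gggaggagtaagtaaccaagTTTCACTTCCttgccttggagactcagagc
BANK1: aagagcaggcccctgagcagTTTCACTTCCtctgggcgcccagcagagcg

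The log2 fold changes of these 6 genes were 0.05 for PIK3CD, 0.54 for FCGR2B, 0.07 for RASGRP3, 0.24 for INPP5D, 0.20 for DAPP1 and 0.20 for BANK1. Without replicate 1 those of PIK3CD, RASGRP3 and BANK1 were below 0, and INPP5D alone was above its partner in each pair.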

How the data were processed

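Paired reads from Nextera libraries of 6 U2932 samples had been aligned to hg19 with STAR, and FPKM were computed with Cufflinks by the authors, whose own test ran ComBat and limma on raw counts. The deposited FPKM of 20667 symbols per library were used here, not counts. Scaling used a trimmed mean of log ratios (trimming 0.3 by ratio and 0.05 by level). Genes that reached 1 FPKM in 3 or more libraries, 10526 of them, entered the test as log2(scaled FPKM + 1), a pseudocount of 1. limma 3.58.1 in R 4.3.3 took condition and, as a block, replicate number, with the variance trend on; two-sided p values were adjusted by Benjamini-Hochberg over all genes tested and read at 0.05. The block follows the study, which corrected for a replicate-based batch effect. After subtracting group means, libraries sharing a number had correlations over genes of 0.848, 0.784 and 0.737, so that the numbers pair the libraries. FPKM state no number of reads. Relative depth was read from the ratios of values under 0.03 FPKM, of which 60.5% to 66.7% lay within 0.03 (log2) of ratios of 1 to 3 reads, and no counting interval is given. The strand setting is not given in the sources used here.

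Members, roles and lists were chosen with earlier results of these data known. Named genes were those with a shared direction in all 3 pairs and an unadjusted p under 0.05, the 4 largest changes, CD79A, CD79B, LYN, BLNK, FYN, SYK and BTK, the most abundant member of each role and of the Src, VAV, NFATC, ITPR and DOK families, and the 3 largest differences in each direction among the other pathway genes with a shared direction (none lower); every member could be named by its fold change. PRKCB, PTPRC, BLK and LCK are given in every library beyond that rule, after their values were seen. Alternatives covered the block, the ComBat method (written out in R in its parametric form, without the condition), a pseudocount of 0.1, filters, scalings, the trend and leaving out each replicate. Fits were tested on simulated data, on which the blocked fit made no call without a change and recovered most of the largest changes simulated but none slightly below the largest seen here, while the ComBat fit made calls without any change. Positions are from GENCODE lifted to GRCh37, the build equivalent to hg19, and promoters from RefSeq on GRCh38.p14. Python 3.11.15, pandas 2.3.3, numpy 2.4.6 and matplotlib 3.10.9 were used.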

Additional observations from a re-analysis of the deposited data

How the results depend on the processing

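With the replicate block, 0 genes were called over all genes tested; without it the count was also 0, and among BCR genes the number at an unadjusted p under 0.05 went from 9 to 0, a change in the error and not in the fold changes, since in complete pairs the block cannot move them. ComBat followed by limma without the block called 297 genes over all genes tested, 4 of them BCR genes, and gave the inhibitors a median of 0.12 in place of 0.17. By that fit, which made calls on simulated data without any change, 15 BCR genes were at an unadjusted p under 0.05. With no filter 5 BCR genes were at an unadjusted p under 0.05. For counts at this limit in the alternatives, the share of all genes is not given here, so they cannot be read against it. With a pseudocount of 0.1 the inhibitors had a median of 0.19. Leaving out each replicate in turn gave 0 to 17 genes called over all genes, 5 to 8 BCR genes at an unadjusted p under 0.05 (2 of the 8 without replicate 1 lower), 20 to 28 higher and 0 to 8 lower in both remaining pairs (23.6% to 26.6% and 23.0% to 28.1% of all genes tested), and medians of 0.08 to 0.16 for the BCR genes, 0.04 to 0.13 for kinases, 0.14 to 0.32 for adaptors, 0.08 to 0.18 for calcium and NFAT genes and 0.10 to 0.17 for inhibitors, whose order changed with the replicate left out. The sign of the log2 fold change turned for 14, 8 and 8 of the 50 BCR genes without replicates 1, 2 and 3, and for 22 in at least 1 of these fits. Among the genes given in every library by rule these were CD79B (-0.46 to 0.17), SYK (-0.13 to 0.26), BTK (-0.094 to 0.22), PLCG2 (-0.11 to 0.33), VAV1 (-0.11 to 0.22) and CSK (-0.22 to 0.11). The cause was not tested. LYN (0.33 to 0.35), BLNK (0.33 to 0.42), PIK3AP1 (0.29 to 0.32) and NFATC2 (0.22 to 0.27) kept their direction in these fits and under the filters, scalings and trend tried. That is not particular to them, since every BCR gene outside the 22 kept its sign whichever replicate was left out. Among those were CD79A (0.16 to 0.25), PTPN6 (0.27 to 0.78) and, below 0, ITPR3 (-0.50 to -0.08). The medians of receptors (-0.04 to 0.20) and effectors (-0.11 to 0.17) also crossed 0. FPKM hold no counts, so counting error was not separated from the spread between libraries.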
